A study of Mus musculus with 2 samples.

Results

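Fibroblast growth factors (FGFs), their receptors and 2 feedback inhibitors were followed across the cells of mouse fracture callus. The set held 9 of the 32285 genes in the count matrices and was chosen by gene symbol: the ligands Fgf2, Fgf7 and Fgf18, the receptors Fgfr1, Fgfr2, Fgfr3 and Fgfrl1, and the Sprouty genes Spry1 and Spry2. The rule itself uses no measured value. The samples were calluses of wild-type C57BL/6J mice with a femoral fracture, and the labels name no other treatment. Single-cell RNA sequencing with droplet capture and 3′ counting gave 2 libraries, named MGJ and MGJ2. The design names calluses taken 10 and 20 days after fracture, from 5 mice each, without saying how the mice were combined into libraries, and no label ties a library to a day, so no day is compared and each library is described on its own. Each library is 1 sample, so no difference has a replicate check and no p-value is given.

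FGFs bind receptor tyrosine kinases together with heparan sulfate chains, and the activated receptor passes the signal through adaptor proteins to the ERK kinases. Sprouty proteins are induced by this signal and restrain it. In growing cartilage, FGFR3 is the receptor of proliferating and maturing chondrocytes and slows their division, FGFR1 marks the hypertrophic zone, and FGFR1 and FGFR2 are used by bone-forming cells. FGFRL1 binds FGFs but lacks the kinase domain.

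After filtering, MGJ held 13320 cells with 131606692 unique molecular identifiers (UMIs, counted RNA molecules) and MGJ2 held 7584 cells with 58108099. The 2 libraries differed in make-up: MGJ had 2508 chondrocyte-like cells, 603 fibroblast-like cells and 263 osteoblast-like cells, whereas MGJ2 had 131 chondrocyte-like cells, 67 osteoblast-like cells and no fibroblast-like class, with 2423 neutrophil-like cells among its mostly haematopoietic cells. All 15 chondrocyte markers were higher in the chondrocyte-like class than in the rest of its library, in both libraries. Of the 10 osteoblast markers 8 in MGJ and 9 in MGJ2 were higher in the osteoblast-like class, and Mepe was at 0. That class was shallow in MGJ, with a median of 2310 UMIs per cell against 20998.5 in chondrocyte-like cells. Levels are given as CPM, the UMIs of a gene per 1000000 UMIs of the class. The osteoblast-like class of MGJ carried 4759.65 CPM of the cartilage collagen Col2a1, against 55444 in chondrocyte-like and 570 in neutrophil-like cells of MGJ, and 0 of its own listed markers were among its 10 leading genes. Only 13 barcodes were kept in both libraries.

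Chondrocyte-like cells were split by Col10a1, the collagen of hypertrophic chondrocytes, into a low stage (under 1000 CPM), a moderate stage and a high stage (10000 or more). These stages are ranges along one measure, not cell types: in MGJ 4.86% of the 2508 cells lay within 1.5 times of the lower boundary and 6.06% within 1.5 times of the upper one. MGJ had 1675 low, 336 moderate and 497 high cells with similar median depths of 20551, 23795 and 21006 UMIs. MGJ2 had 55 low, 25 moderate and 51 high cells, and its moderate stage was too small to be given by class. Levels below carry the exact 95% Poisson interval in brackets, and ratios carry exact 95% binomial intervals. These intervals cover counting error only and leave out the spread between mice.

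**Figure D1:**
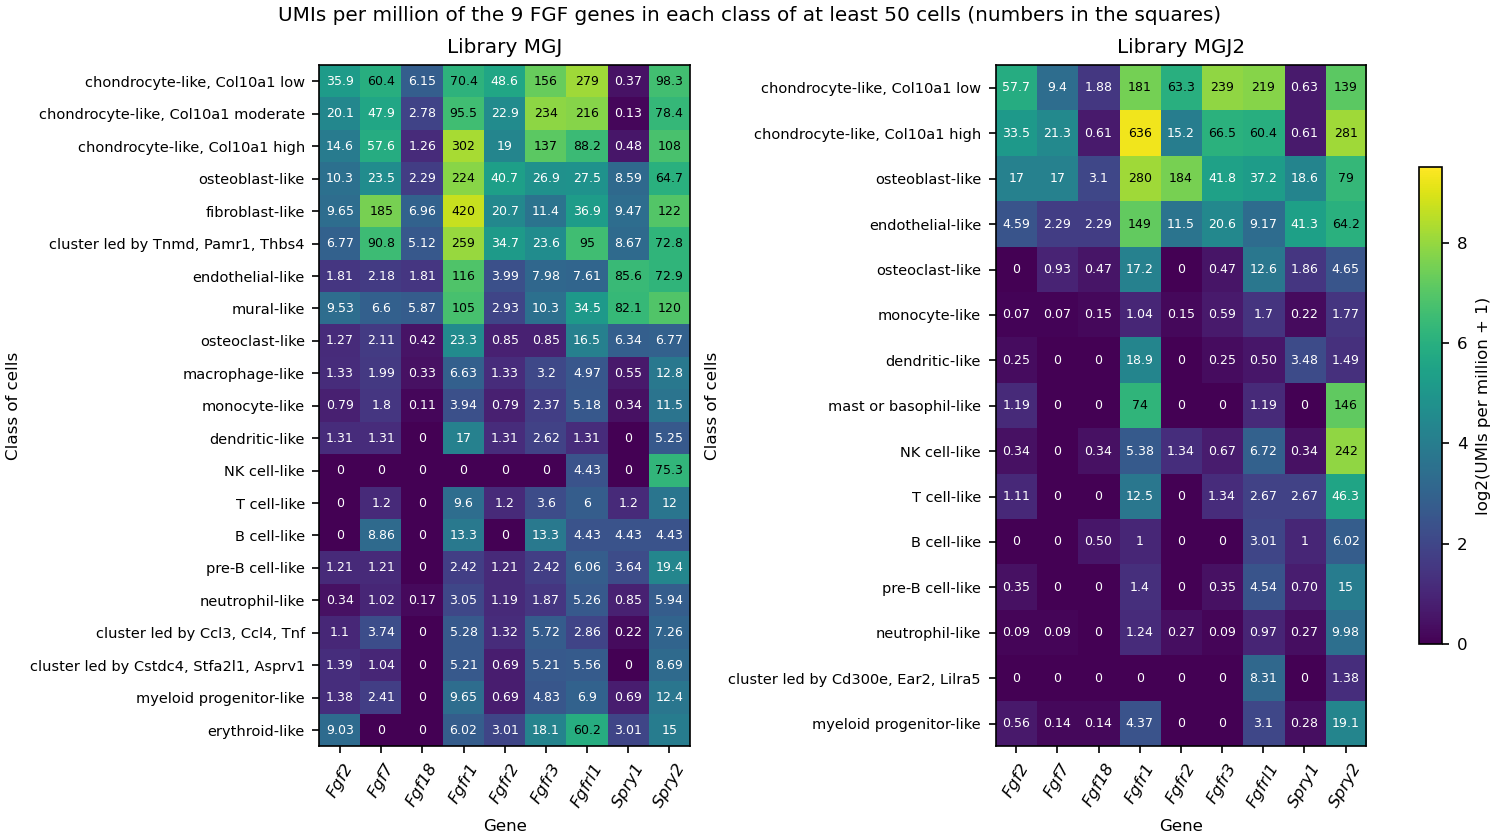
CPM of the 9 genes (columns) in each class of at least 50 cells (rows), library MGJ on the left and MGJ2 on the right. Colour gives log2(CPM + 1) and the number in each square is the level itself. Fgfr3 and Fgfrl1 were brightest in the chondrocyte-like rows, Spry1 in the endothelial- and mural-like rows.

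Fgfr1 was the receptor that rose with Col10a1 in both libraries. It stood at 70.4 (67.7 to 73.3) CPM in the low stage of MGJ, 95.5 (88.8 to 103) in the moderate stage and 302 (292 to 313) in the high stage. In MGJ2 the low stage was at 181 (161 to 203) and the high stage at 636 (598 to 675). The high stage was thus 4.29-fold (4.07 to 4.53) above the low stage in MGJ and 3.51-fold (3.08 to 4.01) above it in MGJ2, with intervals far apart in each library.

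Fgfrl1, the receptor without a kinase, went the opposite way. Its level was 279 (273 to 284) in the low, 216 (206 to 227) in the moderate and 88.2 (82.6 to 94.1) CPM in the high stage of MGJ, and 219 (197 to 244) in the low and 60.4 (49.1 to 73.5) in the high stage of MGJ2. The ratio of high to low stage was 0.316 (0.295 to 0.338) in MGJ and 0.275 (0.218 to 0.345) in MGJ2. When the stages of MGJ were taken from sub-clusters in place of single cells the ratio was 0.509, just short of a 2-fold fall.

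Fgfr2, the receptor of osteoprogenitors and epithelia, was also lower at high Col10a1. It fell from 48.6 (46.4 to 51) CPM in the low stage to 22.9 (19.6 to 26.4) in the moderate and 19 (16.5 to 21.9) in the high stage of MGJ, and the last 2 could not be told apart. In MGJ2 it was 63.3 (51.6 to 76.9) in the low and 15.2 (9.87 to 22.5) in the high stage. The ratios were 0.391 (0.336 to 0.454) in MGJ and 0.241 (0.149 to 0.376) in MGJ2.

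Fgfr3 did not follow Col10a1 in one direction. In MGJ it was highest in the moderate stage, at 234 (223 to 244) CPM, against 156 (152 to 160) in the low and 137 (130 to 144) in the high stage. Finer bins of Col10a1 showed the same arch: Fgfr3 was at 146 (141 to 152) in the 884 cells with under 100 CPM of Col10a1, at 236 (221 to 252) in the 156 cells of the fourth of 7 bins, and at 90.8 (81.9 to 101) in the 221 cells with the most Col10a1. Among the bins of MGJ2 with 10 or more cells, the 13 cells with 300 to 1000 CPM of Col10a1 held the most Fgfr3, 329 (277 to 387), and the 30 cells with the most Col10a1 held 44.2 (31.7 to 60). The ratio of high to low stage was 0.878 (0.827 to 0.931) in MGJ and 0.278 (0.222 to 0.344) in MGJ2, so only the second passed a 2-fold difference.

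**Figure D2:**
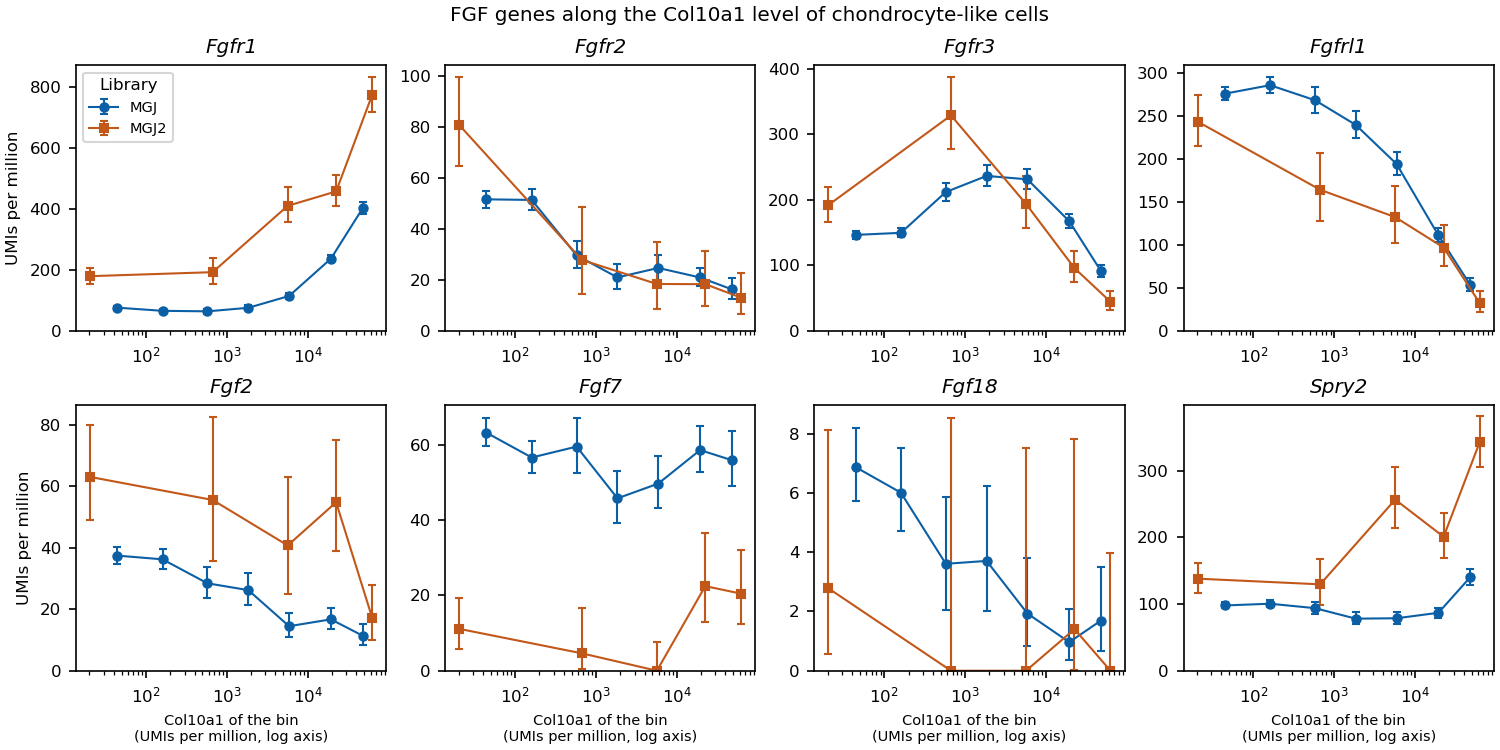
CPM (y axes, linear) of 8 of the genes against the summed Col10a1 level of each bin of chondrocyte-like cells (x axes, log scale), with exact 95% Poisson intervals as bars, for library MGJ (circles) and MGJ2 (squares). Only bins of 10 or more cells are drawn. Fgfr1 climbed to 402 in MGJ and 773 in MGJ2 in the last bin, Fgfrl1 fell to 53.5 and 32.3, and Fgfr3 was highest in a middle bin of both libraries.

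The mix of the kinase receptors shifted accordingly, which compares the same share between classes and does not depend on the depth of a class. Fgfr1 gave 25.6% (24.8 to 26.5) of the 9563 UMIs of Fgfr1, Fgfr2 and Fgfr3 in the low stage of MGJ, 27.1% (25.5 to 28.8) of 2786 in the moderate stage and 66% (64.6 to 67.3) of 4741 in the high stage. In MGJ2 it gave 37.4% (34 to 41) of 772 UMIs in the low stage and 88.6% (86.6 to 90.4) of 1176 in the high stage. Fgfr3 gave 56.7% (55.7 to 57.7), 66.4% (64.6 to 68.1) and 29.8% (28.5 to 31.2) in the low, moderate and high stages of MGJ, and 49.5% (45.9 to 53.1) and 9.27% (7.67 to 11.1) in the low and high stages of MGJ2. Between the low and moderate stages of MGJ the share that dropped was that of Fgfr2, from 17.7% (16.9 to 18.5) to 6.5% (5.61 to 7.48), while the intervals for Fgfr1 overlapped.

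Single cells often held both receptors. With every cell reduced at random to 10000 UMIs, which left out 185 low, 38 moderate and 77 high cells of MGJ, both Fgfr1 and Fgfr3 were found in 25% (22.9 to 27.3) of 1490 low cells, 32.9% (27.6 to 38.5) of 298 moderate cells and 37.9% (33.2 to 42.7) of 420 high cells. Fgfr3 alone was found in 39.3%, 46% and 13.3% of them and Fgfr1 alone in 17.8%, 13.1% and 46.2%. Without reduction 43.6% of low, 58.6% of moderate and 55.1% of high cells held both. For comparison, 1 of 159 monocyte-like cells of that depth in MGJ held both, 0.629% (0.0159 to 3.45), and the median depth of that class was 6538.5 UMIs. In MGJ2 both were found in 25 of 50 low cells, 8 of 22 moderate cells and 17 of 48 high cells at 10000 UMIs, and Fgfr1 alone in 10 of 50, 7 of 22 and 30 of 48.

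**Figure D3:**
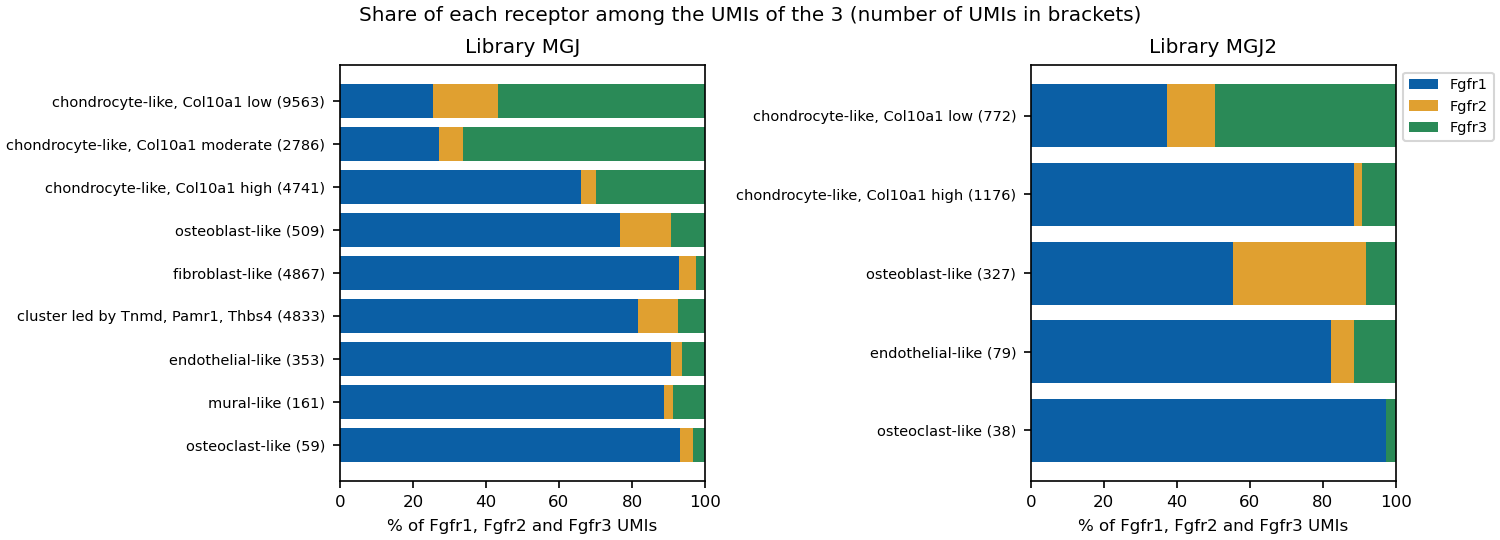
Share (x axis, %) of Fgfr1, Fgfr2 and Fgfr3 among the UMIs of the 3 receptors in the chondrocyte stages, osteoblast-, fibroblast-, endothelial-, mural- and osteoclast-like cells and the Tnmd-led cluster (y axis), where a library has them, with other classes not drawn, library MGJ on the left and MGJ2 on the right, with the number of UMIs behind each bar in brackets. Fgfr3 made up most of the bar in the low and moderate stages of MGJ, and Fgfr1 in every other bar drawn except the low stage of MGJ2, where Fgfr3 held 49.5%.

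Of the ligands, Fgf2, a broad mitogen stored in matrix, was higher in the low than in the high stage of chondrocyte-like cells in both libraries. In MGJ it was at 35.9 (33.9 to 37.9) CPM in the low, 20.1 (17.1 to 23.5) in the moderate and 14.6 (12.4 to 17.1) in the high stage. In MGJ2 it was at 57.7 (46.5 to 70.7) in the low and 33.5 (25.3 to 43.7) in the high stage, and the 8 cells between 1000 and 3000 CPM of Col10a1 held 141 (97.7 to 197) from 34 UMIs. The ratio of high to low was 0.407 (0.341 to 0.482) in MGJ and 0.582 (0.409 to 0.821) in MGJ2, the second short of a 2-fold difference.

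Fgf18, a ligand that acts on FGFR3 in cartilage, was sparse. MGJ held 214 UMIs in the low stage, 22 in the moderate and 13 in the high stage, which gives 6.15 (5.35 to 7.03), 2.78 (1.74 to 4.21) and 1.26 (0.669 to 2.15) CPM and a ratio of high to low of 0.204 (0.107 to 0.357). Fibroblast-like cells, at 6.96 (5.48 to 8.73), were not separable from the low stage. MGJ2 held 16 Fgf18 UMIs in all, too few for a ratio.

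Fgf7, a ligand of mesenchymal cells that acts on epithelial FGFR2, was led by the fibroblast-like class of MGJ, with 185 (177 to 193) CPM. An unnamed cluster of 894 cells led by Tnmd, a tendon gene, Pamr1 and Thbs4 followed with 90.8 (86 to 95.7). Within chondrocyte-like cells of MGJ the stages were close, at 60.4 (57.9 to 63.1), 47.9 (43.2 to 52.9) and 57.6 (53 to 62.4), and the ratio of high to low was 0.953 (0.868 to 1.04). In MGJ2 it was 2.27 (1.21 to 4.47) from 35 and 15 UMIs, and 1.6 when cells with at least 500 genes were used.

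Inside the chondrocyte-like cells of MGJ, Fgf7 instead differed between sub-clusters. The 294 cells led by Smim5, Kctd14 and Slc40a1 held the least of the 7 sub-clusters not set aside, 6.57 (4.52 to 9.22) CPM. Next were the 186 cells led by Espn, Cdsn and H2-Ab1, with 22.9 (18.2 to 28.5). The sub-cluster led by Tfpi2 and Penk held 74.9 (71 to 78.8), and the 53 cells led by the acute-phase genes Saa1, Hp and Saa3 held 91 (74.3 to 110). In MGJ2 the 30 Smim5-led cells held 3 Fgf7 UMIs, 3.92 (0.807 to 11.4) CPM. The 16 cells of MGJ2 led by Ppa1, Elf3 and Trdc held 2, or 3.06 (0.371 to 11.1) CPM. In MGJ the Ppa1-led cells held 63.8 (59.3 to 68.6), so the libraries differed for this sub-cluster. In MGJ the Smim5-led cells had 265 (251 to 280) of Fgfr3 and 30 (25.4 to 35.2) of Spry2, against 132 (127 to 137) and 121 (117 to 126) in the Tfpi2-led cells. High Fgfr3 was shared by the Espn-led cells of MGJ, at 233 (217 to 249), and the Ppa1-led cells, at 207 (199 to 215). The Saa1-led cells had 36.2 (26 to 49.2) of Fgfr3, the least of the 7 sub-clusters of MGJ not set aside. Sub-clusters were formed from these same cells, so these values are a description and no test of a difference.

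The Sprouty genes split between tissues. Spry1 was almost absent from chondrocyte-like cells, with 19 UMIs in 2508 cells of MGJ, 0.358 (0.216 to 0.559) CPM, and 2 UMIs in 131 cells of MGJ2. It was highest in endothelial-like cells of MGJ, at 85.6 (75 to 97.2), and mural-like cells, at 82.1 (67.6 to 98.8), 2 classes that could not be told apart. In MGJ2 endothelial-like cells again led, with 18 UMIs or 41.3 (24.5 to 65.3) CPM, ahead of osteoblast-like cells with 12 UMIs or 18.6 (9.6 to 32.5).

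Spry2 was present in chondrocyte-like, fibroblast-like and vascular cells of MGJ. It was at 122 (115 to 129) CPM in fibroblast-like, 120 (102 to 139) in mural-like and 72.9 (63.2 to 83.7) in endothelial-like cells. The high, low and moderate stages held 108 (102 to 115), 98.3 (95.1 to 102) and 78.4 (72.4 to 84.8). In MGJ2 the high stage stood at 281 (256 to 308) and the low stage at 139 (121 to 158), a ratio of 2.03 (1.73 to 2.39), against 1.1 (1.03 to 1.18) in MGJ. Natural killer cell-like cells were next in MGJ2, at 242 (225 to 261), and 54.3% of these 691 cells held a Spry2 UMI. At 2000 UMIs per cell the share was 35.8% (32.1 to 39.6) in natural killer cell-like cells and 1.19% (0.748 to 1.8) in neutrophil-like cells of MGJ2, with median depths of 3829 and 2582. In MGJ natural killer cell-like cells held 75.3 (43.9 to 121) from 17 UMIs.

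Counted over the set, 5 of the 9 genes were at least 2-fold higher in chondrocyte-like cells than in all other cells of MGJ (Fgf2, Fgfr2, Fgfr3, Fgfrl1 and Spry2), where 13.9% of the 14648 genes with 50 or more UMIs were. Spry1 was the 1 gene at least 2-fold lower, where 26.9% of all genes were. In MGJ2, 7 of the 8 genes with enough UMIs were higher, where 19.9% of 13048 genes were, and Spry1 was lower, where 33% were. That Spry1 ratio, 0.274 (0.0327 to 1.02), rested on 2 UMIs in chondrocyte-like cells and was 1.09 among cells with at least 500 genes. The median ratio of the set was 2.1 in MGJ and 31.9 in MGJ2, and that of all genes tested was 0.86 and 0.779.

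Fgfr3 had the largest of these ratios in both libraries with the clustering used here. Its level was 164 (160 to 167) CPM in chondrocyte-like cells and 9.76 in the rest of MGJ, and 162 (149 to 175) against 1.11 in MGJ2, giving ratios of 16.8 (15.5 to 18.1) and 145 (111 to 192). Chondrocyte-like cells held 83.8% of the Fgfr3 UMIs of MGJ and 87.2% of those of MGJ2. For Fgfr1 both sides of the ratio differed between the libraries. It was at 119 (116 to 122) against 134 in MGJ, a ratio of 0.893 (0.865 to 0.922), and at 401 (381 to 421) against 11.2 in MGJ2, a ratio of 35.6 (32.4 to 39.2). The fibroblast-like class and the Tnmd-led cluster supplied 27.1% and 23.6% of the Fgfr1 UMIs of MGJ, and MGJ2 held no fibroblast-like class and 8 cells of the Tnmd-led cluster. With every cell weighted equally 8 genes were higher in MGJ, Fgfr1 among them at 2.21. At a finer clustering, which called 1973 and 113 cells chondrocyte-like, the Fgfr3 ratio was 2.88 in MGJ and 20.8 in MGJ2, below those of Fgf2 at 3.84 and 47.3, so its rank was lost.

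Between Col10a1 stages, 1 of the 8 genes with enough UMIs was at least 2-fold higher in the high stage of MGJ (Fgfr1), where 8.21% of 11939 genes were, and 4 were lower (Fgf2, Fgf18, Fgfr2 and Fgfrl1), where 10.8% were. In MGJ2, 3 of 7 were higher (Fgf7, Fgfr1 and Spry2), where 7.13% of 5808 genes were, and 3 were lower (Fgfr2, Fgfr3 and Fgfrl1), where 9.4% were. Fgfr1, Fgfr2 and Fgfrl1 had the same call in both libraries. Median ratios were 0.642 and 0.582 for the set and 0.974 and 0.973 for all genes tested in MGJ and MGJ2. With cells of at least 500 genes, Fgfr1 was the 1 gene higher in MGJ2.

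Osteoblast-like cells held less of the cartilage-side genes. Fgfrl1 was at 27.5 (20.3 to 36.4) CPM in MGJ and 37.2 (23.8 to 55.3) in MGJ2, ratios to chondrocyte-like cells of 0.118 (0.0872 to 0.157) and 0.267 (0.169 to 0.401). Fgfr3 was at 26.9 (19.8 to 35.8) and 41.8 (27.6 to 60.9), ratios of 0.165 (0.121 to 0.219) and 0.259 (0.169 to 0.38). Fgf2 was lower too, from 18 and 11 UMIs, at ratios of 0.351 (0.208 to 0.557) and 0.336 (0.165 to 0.615). With each cell named by its own marker score these were 0.523 and 0.955, neither of them a 2-fold difference. Per 10000 Col2a1 UMIs, Fgfrl1 gave 57.7 (42.6 to 76.6) UMIs in osteoblast-like and 41.9 (41.2 to 42.6) in chondrocyte-like cells of MGJ. Fgfr3 gave 56.5 (41.5 to 75.2) and 29.5 (28.9 to 30.1) there. In MGJ2 Fgfrl1 gave 311 (199 to 463) and 30.9 (28.3 to 33.5), and Fgfr3 350 (230 to 509) and 35.8 (33.1 to 38.7). The part of cartilage RNA in the osteoblast-like levels was not tested.

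Fgfr2 in osteoblast-like cells differed in its rank between the libraries. It was at 40.7 (31.8 to 51.3) CPM in MGJ, a ratio to chondrocyte-like cells of 1.04 (0.81 to 1.32), and at 184 (153 to 221) in MGJ2, a ratio of 5.11 (3.98 to 6.57). In MGJ2 this class held 39.7% of all Fgfr2 UMIs and its receptor UMIs were 36.4% (31.2 to 41.9) Fgfr2, against 13.9% (11.1 to 17.3) in MGJ. Col2a1 stood at 4759.65 CPM in that class of MGJ and at 1195.83 in that of MGJ2, and its part in the difference was not tested. When each cell was named by its own marker score the MGJ2 ratio was 1.27.

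Among the 8 genes of the set with enough UMIs, 0 were at least 2-fold higher in osteoblast-like cells of MGJ, where 15.6% of 12426 genes were, and 5 of 8 were lower (Fgf2, Fgf7, Fgf18, Fgfr3 and Fgfrl1), where 12.8% were. Fgf18 was among these from 4 UMIs, at a ratio of 0.488 (0.132 to 1.27). Spry1 had too few UMIs to be counted: its 15 UMIs in osteoblast-like against 19 in chondrocyte-like cells of MGJ give 8.59 against 0.358 CPM, a ratio of 24 (11.3 to 49.8), and 12 against 2 UMIs in MGJ2 give 36.9 (8.21 to 339). In MGJ2 Fgfr2 was the 1 of 7 that was higher, where 12.9% of 7171 genes were, and 4 were lower (Fgf2, Fgfr3, Fgfrl1 and Spry2), where 9.97% were. Set medians were 0.447 and 0.369 against 1.11 and 1.11 over all genes. Fgfr1, at 224 (202 to 247) and 280 (241 to 324) CPM, had ratios of 1.88 (1.69 to 2.08) and 0.7 (0.597 to 0.817). The MGJ2 ratio was 1.67 with cells named by marker score and 0.314 with every cell weighted equally, and the MGJ ratio was 2.5 with marker scores. Named by marker score per cell, 1 gene was higher and 3 were lower in MGJ, and none higher and 2 lower in MGJ2.

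The fibroblast-like class, found in MGJ alone and led by Ereg, Sfrp1 and Cxcl5, held the highest Fgfr1, at 420 (407 to 432) CPM, 3.51-fold (3.38 to 3.65) above chondrocyte-like cells. Fgf7 was 3.18-fold (3.01 to 3.37) higher there, and Spry1, at 9.47 (7.72 to 11.5) CPM, was 26.4-fold (16.1 to 45.7) higher. These 3 of 9 compare with 19.5% of 12877 genes at least 2-fold higher. Fgf2, Fgfr3 and Fgfrl1 were lower, 3 of 9 against 15.3% of all genes, with ratios of 0.329 (0.267 to 0.401), 0.0698 (0.0579 to 0.0834) and 0.159 (0.144 to 0.176). The median ratio was 1.25 for the set and 1.08 for all genes. Fgfr1 gave 92.9% (92.1 to 93.6) of the receptor UMIs of this class, 90.7% (87.1 to 93.5) in endothelial-like and 88.8% (82.9 to 93.2) in mural-like cells.

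**Figure D4:**
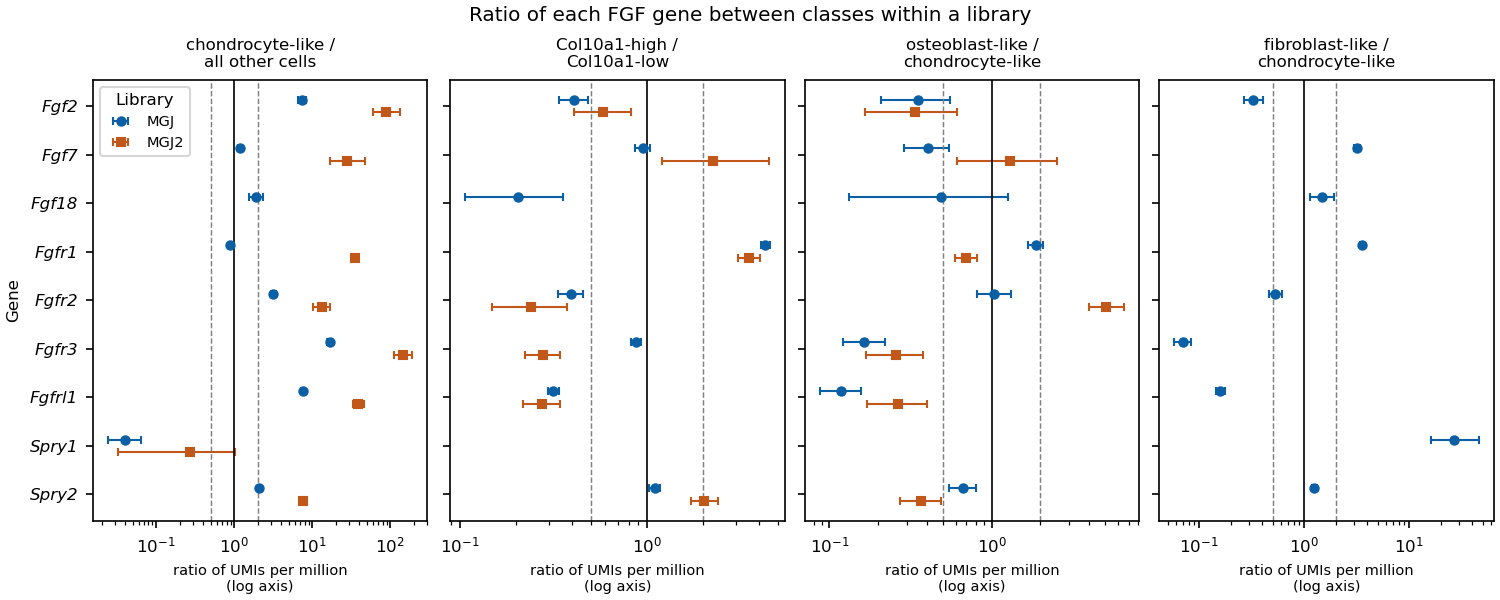
Ratio of the CPM of each gene (y axis) between classes of the same library (x axes, log scale), with exact 95% binomial intervals, for the 4 comparisons and for MGJ (circles) and MGJ2 (squares). The solid line is a ratio of 1 and the dashed lines are 0.5 and 2. In the panel of Col10a1 stages Fgfr1 lay above 2 and Fgfr2 and Fgfrl1 below 0.5 in both libraries.

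In blood cells of MGJ the receptor UMIs were few. The unnamed cluster of 2417 cells led by Ccl3, Ccl4 and Tnf held 56 receptor UMIs, of which Fgfr3 gave 46.4% (33 to 60.3), against 50.8% (50.1 to 51.6) in chondrocyte-like cells, and it carried 971 CPM of Col2a1. Per 10000 Col2a1 UMIs, Fgfr3 gave 32.7 (16.3 to 58.6) UMIs in neutrophil-like and 29.5 (28.9 to 30.1) in chondrocyte-like cells of MGJ, so the 2 could not be told apart by this ratio. In monocyte-like cells it gave 49.8 (30.8 to 76.1). Fgfrl1 gave 92.3 (62.7 to 131) in neutrophil-like and 41.9 (41.2 to 42.6) in chondrocyte-like cells, so for Fgfrl1 the 2 classes differed by this ratio. Where the Fgfrl1 UMIs of neutrophil-like cells came from was not tested. Fgfr1 per 10000 Col2a1 UMIs was 53.6 (31.7 to 84.7) in neutrophil-like, 660 (497 to 859) in osteoclast-like and 2500 (2234 to 2789) in endothelial-like cells, against 21.5 (21 to 22.1) in chondrocyte-like cells. Levels at or under those of neutrophil-like cells (Fgfr3 1.87 and Fgfrl1 5.26 CPM in MGJ) are read as background. This limit is not scaled to Col2a1, so a level above it can still be background in classes with more Col2a1. Mural-like cells of MGJ carried 4040 CPM of Col2a1 against 570 in neutrophil-like cells. Their Fgfr3 gave 25.4 (13.9 to 42.6) per 10000 Col2a1 UMIs, not told apart from chondrocyte-like cells. Fgfrl1 in the 75 erythroid-like cells of MGJ, 20 UMIs or 60.2 (36.8 to 93) CPM, came from 6.67% of the cells, and Col2a1 was at 5329.73 CPM in that class. In MGJ2 mast or basophil-like cells held 62 Fgfr1 UMIs, 74 (56.7 to 94.8) CPM, and 0 UMIs of Fgfr2 and Fgfr3, for which a floor of 3 counts is 3.58 CPM and the exact Poisson upper bound is 4.4 CPM.

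Shares of cells gave the same picture in MGJ. At 2000 UMIs per cell an Fgfr3 UMI was found in 24.9% (23.2 to 26.7) of 2474 chondrocyte-like cells and 0.439% (0.12 to 1.12) of 912 neutrophil-like cells, and an Fgfrl1 UMI in 34.1% (32.2 to 36) and 0.658% (0.242 to 1.43). Unreduced, the shares for Fgfr3 were 76.2% and 0.723%, at median depths of 20998.5 and 3680 UMIs. Fgfr1 was found in 18.8% (17.3 to 20.4) of chondrocyte-like, 53.5% (49.4 to 57.6) of fibroblast-like and 0.439% (0.12 to 1.12) of neutrophil-like cells at that depth.

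Other genes of the pathway were counted from lists. Of 19 further FGF ligands, 3 in MGJ and 2 in MGJ2 had enough UMIs against all other cells. In MGJ 2 of the 3 were higher and 0 lower in chondrocyte-like cells, where 13.9% and 26.9% of all genes were. In MGJ2 1 was higher and 1 lower, where 19.9% and 33% of all genes were. So few tested genes give no direction for the list. Fgf1, a ligand for all FGF receptors, was higher in the high stage in both libraries. It was at 11.5 CPM in the low and 61.2 in the high stage of MGJ, and 23.2 and 152 in MGJ2, ratios of 5.33 (4.69 to 6.05) and 6.58 (4.64 to 9.56). Against all other cells its ratios were 15 (12.4 to 18.4) and 143 (101 to 208). Spry4, another Sprouty gene, was also higher in the high stage, with ratios of 3.3 (2.64 to 4.12) and 6.03 (3.07 to 13.2). Of 11 tested feedback regulators and ERK targets 1, Spry4, was higher and 1 was lower in MGJ, where 8.21% and 10.8% of all genes were. These MGJ counts are near the shares of all genes. In MGJ2 2 of 9 were higher and 0 lower, where 7.13% and 9.4% of all genes were.

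Between stages 0 of 8 adaptors in MGJ and 0 of 7 in MGJ2 were called. Of all genes 8.21% and 7.13% were higher and 10.8% and 9.4% lower there, so a list this short can hold no call at these shares. Against all other cells 3 of 9 adaptors were lower in MGJ and 3 of 8 in MGJ2, the same 3 in both, beside 26.9% and 33% of all genes, and 1 was higher in MGJ2. These shares are near those of all genes. Grb2, the adaptor that links receptors to Sos1, was at 48 against 143 CPM in MGJ and 62.8 against 231 in MGJ2. The ubiquitin ligase Cbl was at 15.7 against 59.1 and 19.2 against 106, and the exchange factor Sos1 at 6.8 against 15.4 and 10.3 against 22.8. Of 8 further receptors and co-receptors 5 in MGJ and 3 in MGJ2 had enough UMIs. In MGJ 1 was higher and 1 lower, where 13.9% and 26.9% of all genes were. In MGJ2 2 were higher and 1 lower, where 19.9% and 33% were, too few for a direction of the list. Flrt3 was the gene lower in both libraries, with ratios of 0.191 (0.179 to 0.204) and 0.0369 (0.0159 to 0.0728). Of 18 tested heparan sulfate carriers and enzymes 7 were higher and 3 lower in chondrocyte-like cells of MGJ, where 13.9% and 26.9% of all genes were, with a median ratio of 0.889 against 0.86 over all genes. In MGJ2 12 of 16 were higher and 1 was lower, where 19.9% and 33% of all genes were. Those higher included the syndecans Sdc4, at 1527 against 297 CPM in MGJ, and Sdc3, at 297 against 63.4. Between stages 3 of 17 tested genes of this list were lower and 0 higher in the high stage of MGJ, where 10.8% and 8.21% of all genes were. In MGJ2 3 of 14 were lower and 1 higher, where 9.4% and 7.13% were. List medians were 0.905 and 0.926 against 0.974 and 0.973 over all genes. The same 3 genes were lower in both libraries. They were the glypican Gpc6, the chain-building enzyme Ext1 and the sulfatase Sulf2, with MGJ ratios of 0.396 (0.342 to 0.457), 0.491 (0.436 to 0.552) and 0.359 (0.306 to 0.419).

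Genes with the most similar pattern were ranked by the lower of the 2 libraries' Pearson correlations of log2(CPM + 10) over 14 classes that both libraries had, among 10120 genes. For Fgfr3 they were P3h2 (0.98), Prelp (0.977) and Tmem45a (0.977), and for Fgfrl1 D630045J12Rik (0.98), Prelp (0.977) and S100b (0.972). Fgf2 was nearest to Thbs3 (0.979), Loxl3 (0.978) and Il11 (0.976), and Fgfr2 to Mmp23 (0.973), Mrc2 (0.966) and Zfhx4 (0.963). Fgfr1 was nearest to Emp2 (0.948), Fosb (0.943) and Pls3 (0.942), and Spry2 to Chsy1 (0.908), Rab27b (0.897) and Gnas (0.892). Fgf7, Fgf18 and Spry1 had under 200 UMIs in MGJ2 and were not ranked. All points share the 2 libraries and most classes hold almost none of these genes, so the correlations describe mainly which classes are high.

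Promoter sequence is shown for 2 genes that were lower at high Col10a1 in both libraries, so that their start regions can be read beside the levels above. RefSeq promoters of GRCm38.p6 matched 8 of the 9 genes in 9 entries. The 250 bases before the transcript start of the RefSeq entry are printed 5′ to 3′ on the strand of the gene. Both windows printed lie inside the wider span that GENCODE M21 gives their gene, so they do not precede its outermost annotated start. Capitals mark the GC box, the letters GGGCGG on either strand.
Fgfrl1 (chr5:108693979-108694228, plus strand): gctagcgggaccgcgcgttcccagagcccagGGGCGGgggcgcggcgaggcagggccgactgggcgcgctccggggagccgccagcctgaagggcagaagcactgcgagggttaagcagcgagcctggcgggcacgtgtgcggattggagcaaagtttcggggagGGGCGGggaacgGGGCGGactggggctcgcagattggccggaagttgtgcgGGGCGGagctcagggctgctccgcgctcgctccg
Fgfr2 (chr7:130266809-130267058, minus strand): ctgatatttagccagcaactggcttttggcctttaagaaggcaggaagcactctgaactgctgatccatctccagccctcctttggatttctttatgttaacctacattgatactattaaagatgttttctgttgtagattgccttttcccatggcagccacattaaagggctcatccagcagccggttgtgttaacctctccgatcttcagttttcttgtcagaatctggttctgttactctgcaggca
The GC box was found 4 times in the Fgfrl1 window and 0 times in that of Fgfr2, and 32.7% of 32851 promoter windows of the same length held it. G and C made up 73.6% and 44% of these windows against a median of 52.4% over all. The RUNX letters TGTGGT (14% of all windows), the AP-1 letters TGANTCA (6.75%) and the SOX letters ACAATG (10.7%) were in none of the 9 entries on either strand, and the E-box letters CACGTG (6.02%) were found in that of Fgfrl1 alone.

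In GRCm38, Fgfr1 lies at chr8:25513654-25575718, Fgfr3 at chr5:33721674-33737068 and Fgfrl1 at chr5:108692382-108706924, all on the plus strand (GENCODE M21). Fgf2 overlaps Nudt6 and Fgf7 overlaps Fam227b on the opposite strand. The annotated span of Fgfr2, chr7:130162451-133123350 on the minus strand, overlaps 69 other genes on either strand. That span reaches far beyond the RefSeq window of Fgfr2 printed above, chr7:130266809-130267058. Whether the counting used strand was not given in the sources used here, and the part of shared reads in these counts was not tested.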

How the data were processed

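The deposited values were raw UMI counts per gene and barcode, which the authors made with Cell Ranger (4.0.0 in the file headers) from 10x 3′ libraries and did not normalise further. MGJ had 14295 barcodes and MGJ2 had 8009. Barcodes with under 200 genes (371 and 70) or over 20% mitochondrial UMIs (464 and 133) were left out, as were called doublets. The doublet caller marked 1.04% and 2.84% of barcodes where loading predicts 10.8% and 6.24%, so doublets remain. Free RNA was not removed. Cells of both libraries were clustered together (scanpy 1.11.5, leidenalg 0.10.2, 2000 variable genes, 30 components, 15 neighbours, resolution 1) and named from marker lists, with "-like" for every name. Chondrocyte-like sub-clusters led by markers of other classes (298 and 10 cells) were set aside. Counts were summed per class and library. Genes with 50 or more UMIs over both sides of a comparison were called at a ratio of 2 or 0.5, and no test was run because each library is 1 sample. Intervals came from scipy 1.17.1. The genes described were the set in every class of at least 50 cells, list genes called alike in both libraries, at most 3 per list and comparison, and the 3 nearest genes by likeness. The members and lists were chosen with earlier results of these data known.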

Additional observations from a re-analysis of the deposited data

Results flagged for a closer look

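Barcodes that the filters left out entered no comparison, yet both libraries had UMIs of the set in them, above a floor of 3 counts. In MGJ the 975 such barcodes held 1333 UMIs of the 9 genes, 360.5 (341 to 380) CPM, against 498 in kept cells. In MGJ2 the 425 such barcodes held 169 UMIs, 55.9 (47.8 to 65) CPM, against 119.7 in kept cells. Fgfr1 gave the most of them in MGJ (404 UMIs) and Spry2 in MGJ2 (96 UMIs).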

How the results depend on the processing

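The results were recomputed under 14 alternatives. Of 126 recomputed counts of called genes 116 stayed within 1.5 times the reported count, and of 56 ratios 38 kept their call and 47 stayed on the same side of 1 under every alternative that gave a value. With every cell weighted equally, 8 genes and not 5 were higher in chondrocyte-like cells of MGJ. With cells of at least 500 genes, and with each library clustered alone, 0 and not 1 was lower there in MGJ2, and with at least 500 genes the Spry1 ratio turned from 0.274 to 1.09 and 1 gene and not 3 was higher in the high stage of MGJ2. In osteoblast-like cells of MGJ 1 gene and not 0 was higher at a fold of 1.5, at a minimum of 20 UMIs and with cells named by marker score. With marker scores 3 and not 5 were lower in MGJ, and in MGJ2 0 and not 1 was higher and 2 and not 4 were lower, with the Spry2 ratio turning from 0.369 to 1.26. The cause was not tested. The Fgfr1 ratio of high to low stage ranged from 3.73 to 4.68 in MGJ and from 3.22 to 4.17 in MGJ2, and that of Spry2 in MGJ2 from 1.89 to 2.61, under 2 in 3 alternatives. The stages of MGJ2 had under 50 cells a side under several alternatives, which then gave no value. No paired analysis was possible because each library is 1 sample with no replicate number. Counts of Fgf18 and Spry1 limit what can be said of them in MGJ2.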
